A study of Homo sapiens with 9 samples.

Results

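The genes described here are 10 tubulin isotypes, chosen by symbol out of 26621 genes in count tables from human HEK293T and A549 cells: the alpha-tubulins TUBA1A, TUBA1B and TUBA1C, the beta-tubulins TUBB, TUBB2A, TUBB2B, TUBB3, TUBB4B and TUBB6, and the gamma-tubulin TUBG1. All 10 had reads in every library with gene counts. HEK293T cells are transformed embryonic kidney cells and A549 cells derive from a lung carcinoma; both lines are established, and HEK293T is labelled wild type. Total RNA of cultured cells was reverse transcribed with an adaptor-flanked oligo(dT) primer in a protocol named CLT-seq, in which a second adaptor is ligated to the cDNA before PCR. The unanchored primers T12, T18 and T30 end in 12, 18 or 30 T. The anchored primers T18V, T18VN and T18VNN carry 18 T followed by 1, 2 or 3 further bases, of which the first is not T. The series' list of primers writes the name of the second as T12VN beside a sequence with 18 T, and the sample title, T18VN, is followed here. The protocol gives the RNA input as 400 ng in one place and 500 ng in another. HEK293T had 1 library with gene counts for each of the 6 primers, and A549 had 1, made with T12. Of 9 libraries in all, the other 2 (T12 replicate 2 of HEK293T and T12 replicate 1 of A549) had no gene counts among the files used.

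Microtubules are hollow polymers of alpha- and beta-tubulin heterodimers, and gamma-tubulin sits in the ring complex from which they grow. Vertebrates carry several genes for each of alpha- and beta-tubulin, whose proteins differ most at the acidic C-terminal tail, where many modifications are added. Cells also lower the stability of tubulin mRNAs when free heterodimer accumulates, a feedback known as tubulin autoregulation. TUBB3 is widely used as a neuronal marker and is also found in several carcinomas.

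Because CLT-seq primes on poly(A), the last 30 bases of each mRNA are printed here as the sequence next to the tail. They are taken from GENCODE release 29 transcripts (GRCh38), in lower case with the polyadenylation hexamer AATAAA or its variant ATTAAA in capitals. The alpha- and gamma-tubulin ends were as follows.
TUBA1A (chr12:49184796-49184825, minus strand): tttgAATAAAgtattccctgtcttaaatga
TUBA1B (chr12:49127782-49127811, minus strand): tatctcaaagtaaagtcattaacatcaaaa
TUBA1C (chr12:49273305-49273334, plus strand): tgttAATAAAattgaagtttccattttaaa
TUBG1 (chr17:42615205-42615234, plus strand): atttatctttAATAAAgcactggatataaa
The beta-tubulin ends were as follows.
TUBB (chr6:30725397-30725426, plus strand): ccaaaAATAAAtgggaattgaaaaaagctg
TUBB2A (chr6:3153669-3153698, minus strand): tatctatactAATAAAaaagcatgtgtaga
TUBB2B (chr6:3224261-3224290, minus strand): attagttgaaaaaatgtctacttgaaagca
TUBB3 (chr16:89936068-89936097, plus strand): ttAATAAAtctattgctgtcagataccctt
TUBB4B (chr9:137243678-137243707, plus strand): agacaccaccATTAAAgcattttcatagtg
TUBB6 (chr18:12326590-12326619, plus strand): aatgacgtaagttactttgtatggttacaa
AATAAA lay within the last 50 bases in 7 of 10 members (in TUBB2B it starts 37 bases before the end, outside the stretch printed), ATTAAA in 1, and neither in TUBA1B and TUBB6. Over 24943 genes with a linked transcript, 53.7% held AATAAA there and 65.8% held either hexamer. The longest run of A anywhere in a member was 4 to 8 bases, where the median over all genes was 6 and 8.92% of genes had a run of 12 or more. The GENCODE transcript of TUBA1B differed in length from the RefSeq entry counted by 126 bases and that of TUBG1 by 340 bases. For TUBA1A, TUBA1C, TUBB, TUBB2A, TUBB3 and TUBB6 the transcript was linked through a RefSeq entry other than the one counted. The ends of all these members may thus not be those of the entries counted.

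The isotypes also differ at their promoters. The 100 bases before the start of the most abundant alpha-tubulin, the most abundant beta-tubulin and the member that was higher in A549 are printed from RefSeq (GRCh38.p14), with the letters CCAAT (the CCAAT box), GGGCGG (a GC box) and TATAAA in capitals on either strand. TUBB and TUBB3 have 2 listed starts each, and both are printed, since it was not determined which start belongs to the entry counted. Capitals at the first bases of the second TUBB start belong to a match that begins before the stretch.
TUBA1B (chr12:49131396-49131495, minus strand): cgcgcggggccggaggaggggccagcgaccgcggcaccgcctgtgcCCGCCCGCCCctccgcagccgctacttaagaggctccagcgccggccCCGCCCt
TUBB first start (chr6:30720252-30720351, plus strand): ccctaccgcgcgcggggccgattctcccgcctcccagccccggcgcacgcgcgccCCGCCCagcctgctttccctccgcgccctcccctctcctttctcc
TUBB second start (chr6:30721538-30721637, plus strand): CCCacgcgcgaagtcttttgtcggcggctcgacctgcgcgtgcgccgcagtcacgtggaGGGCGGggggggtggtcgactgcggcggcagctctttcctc
TUBB3 first start (chr16:89921825-89921924, plus strand): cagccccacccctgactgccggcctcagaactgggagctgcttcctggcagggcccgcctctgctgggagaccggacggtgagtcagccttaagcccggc
TUBB3 second start (chr16:89923242-89923341, plus strand): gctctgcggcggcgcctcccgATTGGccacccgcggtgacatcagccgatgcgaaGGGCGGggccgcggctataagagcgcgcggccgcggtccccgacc
The first TUBB3 start held none of the 3 motifs in its 250 bases, and the second held CCAAT and GGGCGG.
In windows of 250 bases before the start, CCAAT occurred at 10 of 15 starts of the members, covering 8 of 10 genes, and in 32.0% of all 35116 promoters. GGGCGG occurred at 9 of 15 starts, also covering 8 genes, and in 42.6% of all promoters. TATAAA occurred at 1 start, that of TUBB2A, and in 10.7% of all promoters. These matches are of letters only and were not compared with any measure of binding.

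The libraries held 7491993 to 25578543 reads, of which 1499600 (A549) to 5216900 (HEK293T T18) lay on genes. Levels are given in CPM, counts scaled to a common total of reads on genes (counts per 1000000), and 3 reads, taken as the detection floor, equal 0.575 CPM in the deepest library and 2.00 CPM in A549. In HEK293T T18, a single gene that is no tubulin, ZNF557, took 7.18% of gene reads against at most 0.00772% in the other libraries, which lowers every other CPM value of that library by about that share. In HEK293T T18VNN, the first 20 of 100 percentiles of the pooled transcript body held 33.7% of the deposited coverage, against 2.64% to 3.16% for the T18, T30 and T18V libraries. The deposited profiles labelled T12 and T18VN were identical to each other, so neither was used. The 3 anchored libraries had smaller totals than the 3 unanchored ones, and a larger share of their reads lay on genes (27.8% to 37.7% against 11.7% to 20.4%), while the reads on genes, on which CPM rests, overlapped between the classes. No batch or date is labelled, so primer class, library total, share on genes and batch cannot be told apart. Among 9 A549 marker genes, all 9 were higher in A549, with a summed level of 15394 CPM there and 0 to 8.86 CPM over the HEK293T libraries. All 5 HEK293T markers were lower in A549, at a sum of 107 CPM against 3715 to 5243 CPM, and 3 of them had no read there. Both marker lists were written with earlier results of these data known, so they are no independent check of identity.

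TUBA1B, a broadly expressed alpha-tubulin, was the most abundant alpha-tubulin in all 7 libraries. It lies on chromosome 12 (49521565 to 49525304, minus strand, hg19, the build of the deposited tables). In HEK293T its level was 10600, 8863 and 9416.5 CPM with T12, T18 and T30 and 18138, 13673 and 13639 CPM with T18V, T18VN and T18VNN, and in A549 it was 716 CPM. The 3 anchored libraries were the 3 highest, in T18VN it had more reads than any other gene, and A549 lay far below every HEK293T library.

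TUBA1C, an alpha-tubulin with nearly the same protein in the same cluster on chromosome 12 (49658782 to 49667121, plus strand), showed the opposite order of primers. Its levels were 808, 805 and 931 CPM with T12, T18 and T30, and 196, 537 and 287 CPM with T18V, T18VN and T18VNN. It was the member that varied most between the HEK293T libraries, with a 4.74-fold range. A549 had 115 CPM.

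TUBA1A, the alpha-tubulin known for its high level in developing neurons (chromosome 12, 49578578 to 49583107, minus strand), was a minor isotype in HEK293T. It had 159, 159 and 149 CPM with T12, T18 and T30, and 148, 254 and 318 CPM with T18V, T18VN and T18VNN. Its 239 CPM in A549 fell inside that range.

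TUBB, the general beta-tubulin, was the most abundant beta isotype in every library. Its locus (chromosome 6, 30687978 to 30693203, plus strand) lies in the HLA region, so it is listed on 8 sequence names, and the values here are sums over them. The sums were 9323 CPM (T12), 8608 (T18) and 11968 (T30) without an anchor and 9086 (T18V), 7034 (T18VN) and 5260 (T18VNN) with one. A549 had 1285 CPM, below all of them.

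TUBB4B, the other beta-tubulin expressed in most tissues (chromosome 9, 140135711 to 140138159, plus strand), was the steadiest member. It had 1024, 851 and 799.6 CPM with T12, T18 and T30, and 1126, 1050.5 and 992 CPM with T18V, T18VN and T18VNN, a 1.41-fold range. A549 had 128 CPM. TUBB2B, linked to cortical development (chromosome 6, 3224495 to 3227968, minus strand), had 712, 1125 and 1603 CPM with T12, T18 and T30 and 977, 927 and 1240 CPM with the anchored primers in the same order as above. Its lowest HEK293T value was that of T12, and A549 was lower still, at 68.0 CPM.

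The remaining beta-tubulins were low. TUBB2A lies beside TUBB2B on chromosome 6 (3153900 to 3157783, also minus strand). Its levels were 98.0, 70.7 and 75.9 CPM with T12, T18 and T30, then 142, 93.9 and 67.7 CPM with T18V, T18VN and T18VNN, and 32.7 CPM in A549. TUBB6, a widely expressed minor isotype (chromosome 18, 12308058 to 12326615, plus strand), had its 2 highest values with T12 (132 CPM) and T18V (118 CPM), lay between 60.2 and 67.9 CPM in the other 4 HEK293T libraries, and had 34.0 CPM in A549. Both were lowest in A549.

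TUBB3 (chromosome 16, 89988417 to 90002505, plus strand) was the lowest member in every HEK293T library and went the other way in A549. It had 33.9 CPM with T12, 15.1 and 17.5 with T18 and T30, and 12.8, 13.1 and 12.8 with T18V, T18VN and T18VNN, against 129 CPM in A549. The T12 library stood above the other 5 HEK293T libraries, and A549 stood above all 6.

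TUBG1, the main gamma-tubulin of dividing cells (chromosome 17, 40761358 to 40767256, plus strand), had 556, 277 and 203 CPM with T12, T18 and T30 and 567, 463 and 277 CPM with T18V, T18VN and T18VNN. A549 had 78.7 CPM, again below the HEK293T range.

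**Figure D1:**
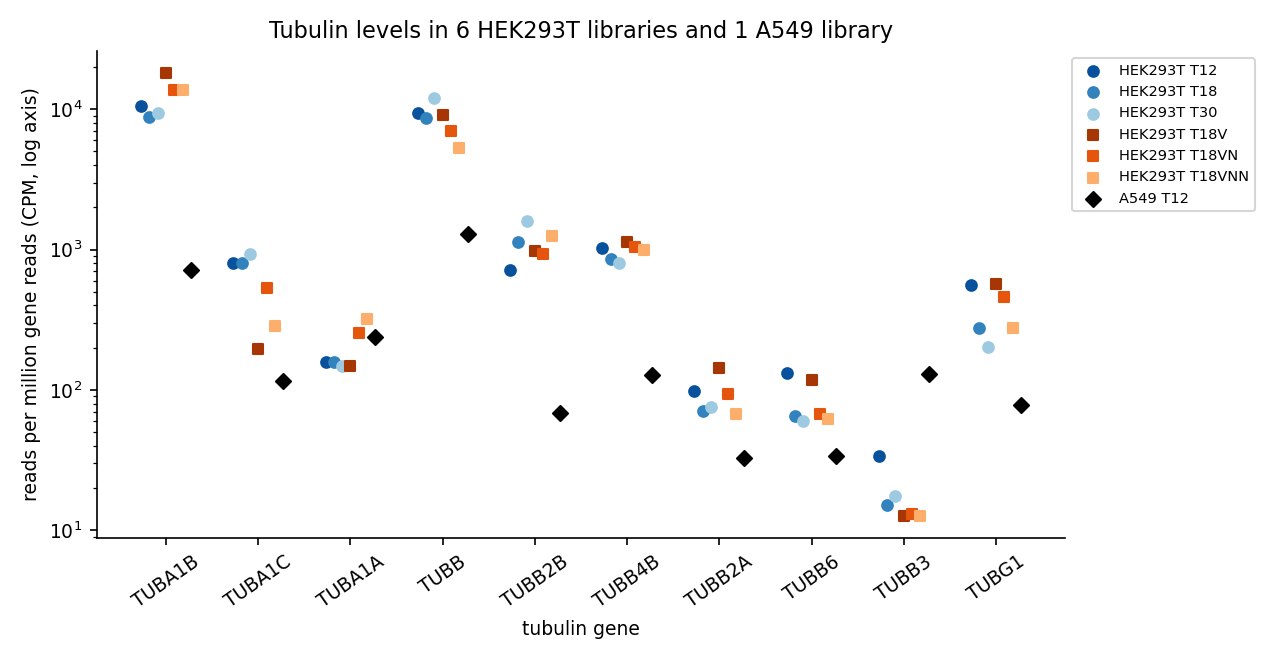
Levels of the 10 tubulin genes (CPM, log axis) in 6 HEK293T libraries (circles unanchored, squares anchored primers) and 1 A549 library (diamonds), 1 point per library. A549 lies below the HEK293T points for 8 genes, above them for TUBB3 and among them for TUBA1A.

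To compare the members with one another, CPM was divided by the length of the transcript counted. Over the 6 HEK293T libraries the order of levels was TUBA1B (7067 ± 1988 CPM per kb, SD, n = 6), TUBB (3368 ± 893), TUBB4B (612 ± 78.2), TUBB2B (543.5 ± 152), TUBA1C (361 ± 184), TUBG1 (200.2 ± 80.9), TUBA1A (80.0 ± 28.8), TUBB2A (52.2 ± 15.9), TUBB6 (43.2 ± 16.5) and TUBB3 (9.60 ± 4.50). The entries of 5 members (TUBA1A, TUBB, TUBB2A, TUBB3 and TUBB6) tied in reads at different lengths, and the first listed was used. Whichever lengths were taken, the steps from TUBB to TUBB4B and from TUBB6 to TUBB3 had HEK293T ranges that did not overlap. The step from TUBA1B to TUBB did not overlap with the TUBB entry used (2538 bases), but with the shortest of its 4 tied entries (2064 bases) TUBB reached 5799 CPM per kb in T30, above the lowest TUBA1B value of 5056. TUBB4B exceeded TUBB2B in 4 of 6 libraries, and the other overlapping neighbours kept their order in 5 or 6 of 6. In A549 the order was TUBB (506 CPM per kb), TUBA1B (409), TUBA1A (96.4), TUBB4B (80.5), TUBB3 (70.8), TUBA1C (70.2), TUBG1 (40.3), TUBB2B (33.7), TUBB2A (18.6) and TUBB6 (17.4). The tied lengths ran from 1916 to 2476 bases in TUBA1A, 2064 to 2670 in TUBB, 1621 to 1753 in TUBB2A, 1769 to 1826 in TUBB3 and 1950 to 2528 in TUBB6, so the values per kb of these members depend on the entry used.

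The next comparison asked how the isotypes differ between A549 and HEK293T with the same T12 primer. In A549 8 of the 10 isotypes were lower than in HEK293T T12, most of all TUBA1B, and TUBB3 was higher. With 1 library for each line there is no test: a gene was counted where CPM + 1 differed 2-fold and the larger of its 2 read counts was at least 20, and the 95% intervals below cover counting error only. In bulk RNA of a cell line, a level that differs in all cells and one that differs in part of them cannot be told apart.

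Among alpha-tubulins, TUBA1B reads numbered 1074 in A549 and 34729 in HEK293T T12, which was 14.8-fold lower (95% interval 13.9 to 15.7). TUBA1C, with 173 and 2646 reads, was 7.001-fold lower (6.001 to 8.21), but only 1.70-fold below the lowest HEK293T library. TUBA1A, with 358 and 522 reads, was 1.498-fold higher (1.31 to 1.72), short of the 2-fold threshold and inside the HEK293T range. The 3 alpha genes thus spanned log2 ratios from -3.89 to 0.58.

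Among beta-tubulins, TUBB2B had 102 and 2333 reads and was 10.5-fold lower (8.58 to 12.9). TUBB4B, with 192 and 3355 reads, was 8.00-fold lower (6.91 to 9.30), and TUBB, with 1927 and 30545 reads, was 7.26-fold lower (6.93 to 7.60). TUBB6 (51 and 434 reads, 3.90-fold, 2.91 to 5.31) and TUBB2A (49 and 321 reads, 2.999-fold, 2.21 to 4.14) were lower by less, and their intervals lie below those of the 3 isotypes just named. Against the lowest HEK293T library the differences of TUBB6 and TUBB2A were 1.77-fold and 2.07-fold. The interval of TUBB takes each read as counted once, but its sum over sequence names may count a read more than once. By name, the TUBB difference ran from 1.06-fold to 21.1-fold, so its place above TUBB6 and TUBB2A holds for the sum only.

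TUBB3 reads numbered 194 in A549 and 111 in HEK293T T12, which was 3.82-fold higher (3.01 to 4.87). HEK293T T12 was the highest of the 6 HEK293T libraries for this gene, and against the lowest A549 was 10.1-fold higher. TUBG1, with 118 and 1823 reads, was 7.07-fold lower (5.87 to 8.59), but 2.58-fold below the lowest HEK293T library, T30.

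**Figure D2:**
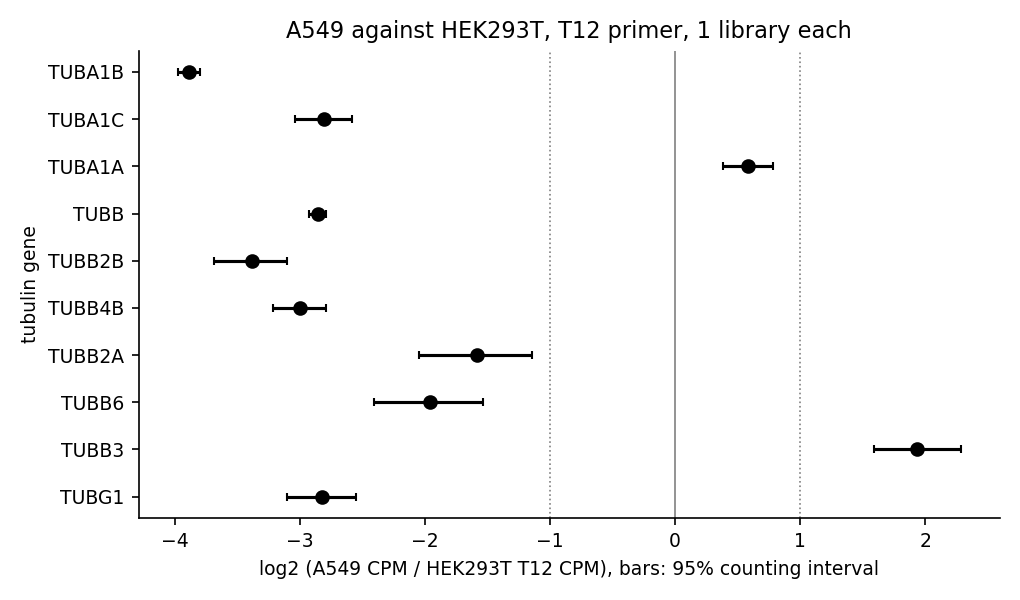
Log2 ratio of CPM in A549 to CPM in HEK293T, T12 primer, 1 library each, with 95% counting intervals as bars and dotted lines at 2-fold. Of the 10 genes, 8 lie left of the lower dotted line, TUBB3 right of the upper one and TUBA1A between them.

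In all, 8 of 10 members were at least 2-fold lower, and over 10142 genes with enough reads 29.1% were. One of 10 was at least 2-fold higher, against 31.0% of genes. The same 8 members also lay below all 6 HEK293T libraries, where 22.1% of genes were at least 2-fold lower and below all 6, and TUBB3 lay above all 6, where 26.5% of genes were at least 2-fold higher and above. The median log2 ratio was -2.80 over the members and 0.02 over all genes. As a share of all gene reads, the members took 2.08% to 3.05% in HEK293T (2.34% with T12) and 0.283% in A549, an 8.30-fold difference with T12.

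The mixture of isotypes differed as well. It is computed from the same levels, so it is no separate observation. A member's share can rise while its level does not: TUBA1C, TUBB2A and TUBB6 were lower in A549 than in every HEK293T library, and TUBA1A lay inside their range. Within the 3 alpha-tubulins, per length, TUBA1B made up 89.6% to 98.3% over the HEK293T libraries and 71.0% in A549. TUBA1A made up 0.570% to 1.59% in HEK293T and 16.8% in A549, and TUBA1C 1.13% to 9.44% and 12.2%. All 3 alpha shares of A549 lay outside the HEK293T range, also in all 32 combinations of the tied lengths.

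Within the 6 beta-tubulins, TUBB made up 61.2% to 77.4% in HEK293T and 69.6% in A549, inside the range. TUBB4B was also inside, at 8.24% to 18.4% in HEK293T and 11.1% in A549. TUBB3 stood furthest apart, at 0.142% to 0.386% in HEK293T and 9.74% in A549. TUBB2B was lower in A549 (4.63% against 7.33% to 18.1%), and TUBB2A (2.56% against 0.710% to 1.65%) and TUBB6 (2.40% against 0.506% to 1.41%) made up more. Which beta shares of A549 lay inside or outside the HEK293T range was the same in all 32 combinations of tied lengths. Those combinations vary length only. All beta shares also rest on TUBB summed over its sequence names, which may count a read more than once. They were not recomputed with TUBB from chromosome 6 alone, so the calls for TUBB and TUBB4B hold for the sum only.

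**Figure D3:**
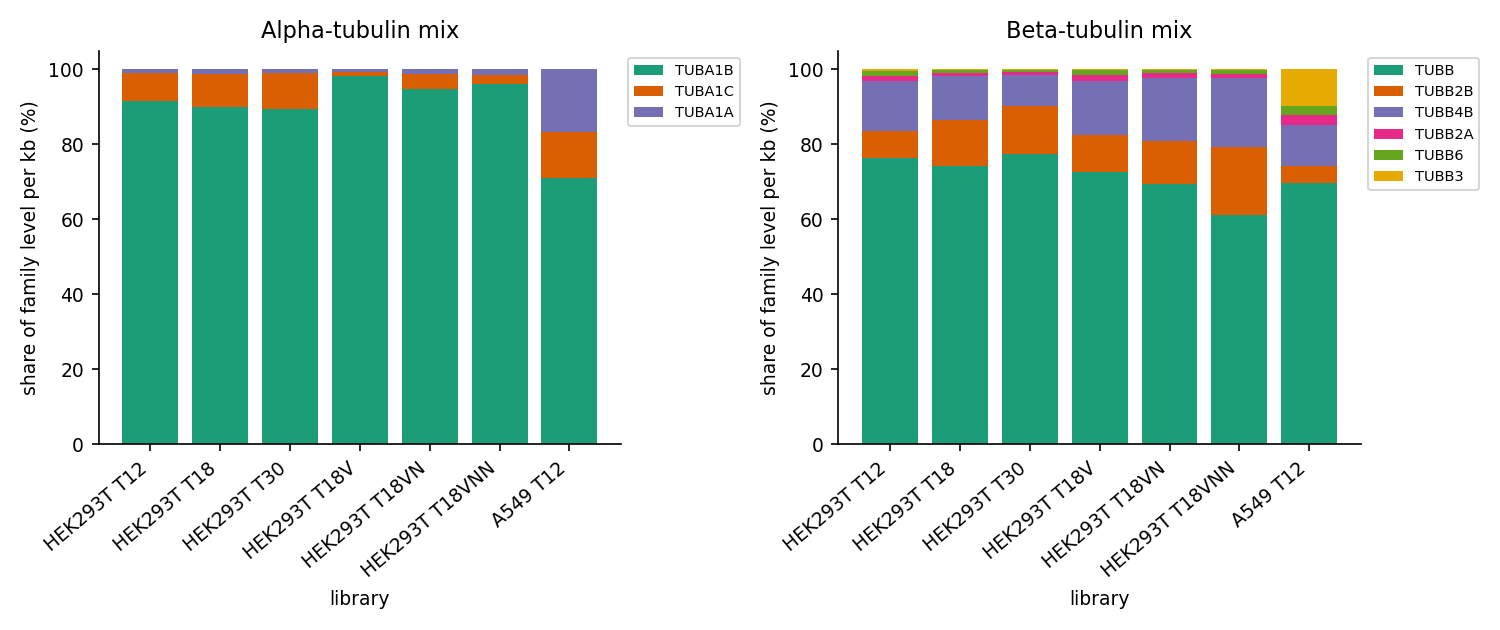
Share of each isotype in the summed level per kb of the 3 alpha-tubulins (one panel) and the 6 beta-tubulins (the other panel), 1 bar per library. TUBA1A makes up 16.8% of alpha and TUBB3 9.74% of beta in A549, where the HEK293T bars hold at most 1.59% and 0.386%.

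The reads of TUBB were also examined by sequence name, since hg19 holds the HLA region as the reference chromosome 6 and 7 alternate haplotypes, each named for a cell line. In HEK293T, the haplotype named mcf held 53.4% to 63.8% of TUBB reads and ssto 13.8% to 22.4%, while chromosome 6 itself held 1.18% to 2.28%. In A549, ssto held 37.5%, mcf 22.0%, qbl 16.6% (2.40% to 3.77% in HEK293T) and chromosome 6 held 6.18%. A549 was below HEK293T T12 on 8 of 8 names and below all 6 HEK293T libraries on 7 of 8, but the size of the difference ranged from 1.06-fold (qbl) and 1.39-fold (chromosome 6) to 21.1-fold (mcf). Read from chromosome 6 alone, TUBB was not past 2-fold (log2 ratio -0.48). How reads that match several names were assigned is not given in the sources used here, and the sum may count a read more than once.

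**Figure D4:**
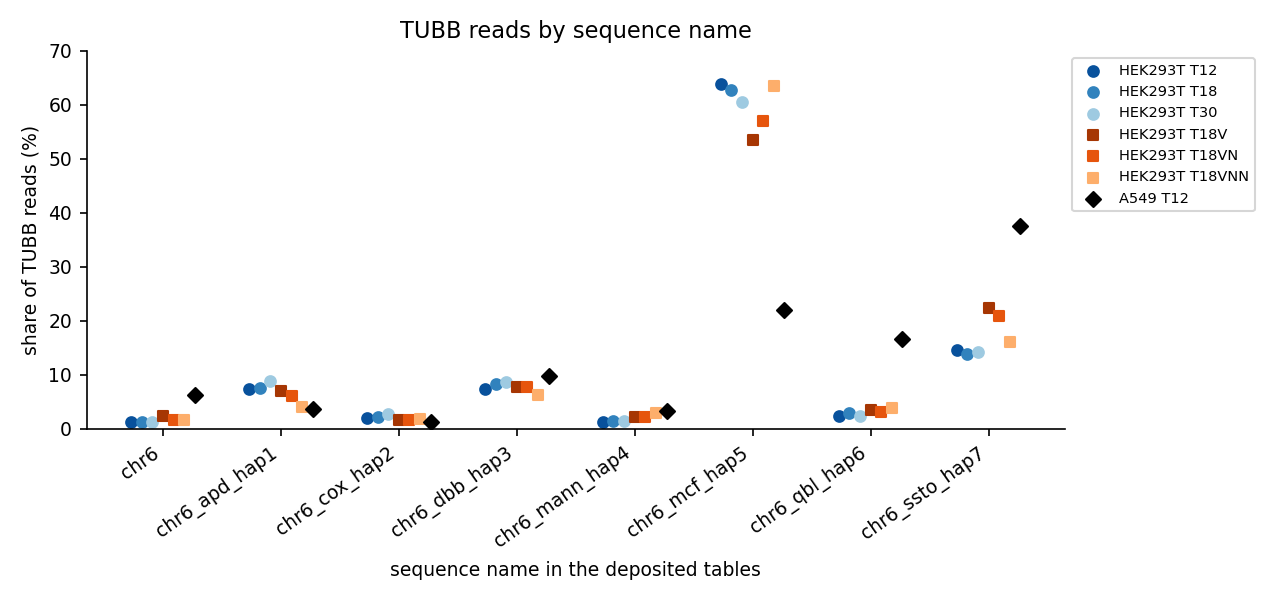
Share of TUBB reads (%) on each of 8 sequence names in the deposited tables, 1 point per library (circles unanchored, squares anchored HEK293T, diamonds A549). The mcf haplotype holds most reads in all HEK293T libraries, and ssto holds most in A549.

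Reads of other loci bear on some members. CIMIP2A overlaps TUBB4B by 125 bases on the opposite strand and had 458 to 3290 reads in HEK293T and 61 in A549, and RETREG3 overlaps TUBG1 by 88 bases and had 51 to 96 reads in HEK293T and 41 in A549. Use of strand in the counting is not stated, so reads in these overlaps are uncertain. Tubulin genes are close in sequence and have pseudogene copies: TUBBP5 had 100 to 326 reads in HEK293T and 0 in A549, and TUBA3FP had 5 to 16 and 1. Whether reads moved between such copies was not tested.

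The last comparison asked whether anchored and unanchored primers gave different isotype levels in HEK293T. TUBA1C was lower with anchored primers in all 3 libraries and TUBA1B higher in all 3, but no member passed the test. The 3 primers of a class stood in for replicates, so p-values measure the spread between primers, which may be technical. With edgeR's quasi-likelihood test, 0 of 10 members had a Benjamini-Hochberg adjusted p under 0.05, and 1.35% of the 10885 genes tested did (85 higher and 62 lower with anchored primers). At an unadjusted p under 0.05 there were 2 members, TUBA1C and TUBB, and 15.5% of all genes. DESeq2 called 1 of 10 members, TUBA1C, and 603 of 7788 genes.

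TUBA1C had 848 ± 71.8 CPM without an anchor and 340 ± 176 CPM with one (SD, n = 3 per class), and its log2 fold change was -1.50 (SE 0.37, edgeR adjusted p = 0.0695). Its call changed with the method and the libraries: the adjusted p was 0.00188 in DESeq2, 0.00538 in edgeR with no filter on low counts, 0.0346 without T18VN and 0.243 without T18VNN. TUBA1B had 9627 ± 887 against 15150 ± 2588 CPM (SD, n = 3 per class), and its log2 fold change was 0.48 (SE 0.24, edgeR adjusted p = 0.371). TUBB had 9967 ± 1770 against 7127 ± 1915 CPM (SD, n = 3 per class), and its log2 fold change was -0.66 (SE 0.28, edgeR adjusted p = 0.290), and the classes overlapped. TUBB3 had 22.2 ± 10.2 against 12.9 ± 0.212 CPM (SD, n = 3 per class), and its log2 fold change was -0.94 (SE 0.47, edgeR adjusted p = 0.373), and all 3 anchored values were the lowest.

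The other 6 members had log2 fold changes between -0.32 (TUBB2B) and 0.45 (TUBA1A) with overlapping classes and edgeR adjusted p of 0.571 or more. In 3 of 10 members (TUBA1B, TUBA1C and TUBB3) the classes did not overlap, and in 23.7% of all genes tested they did not. Fold changes were negative in 5 members and positive in 5, with a median of -0.07 (-0.002 over all genes). The ratio of summed alpha to summed beta level per kb was 1.37, 1.23 and 0.984 with T12, T18 and T30, and 2.14, 2.06 and 2.39 with T18V, T18VN and T18VNN. The anchored ratios all lay above the unanchored ones, and A549 T12 had 0.791, below every HEK293T library. Both orders held in all 32 combinations of the shortest and longest tied entries, which gave up to 1.43 without an anchor, at least 1.78 with one and 0.679 to 0.864 in A549. The ratio was not tested, and it rests on the division by length and on TUBB summed over its sequence names. Without division by length, summed alpha and beta were 11567 and 11324 CPM in HEK293T T12, and 1070 and 1677 CPM in A549 T12.

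**Figure D5:**
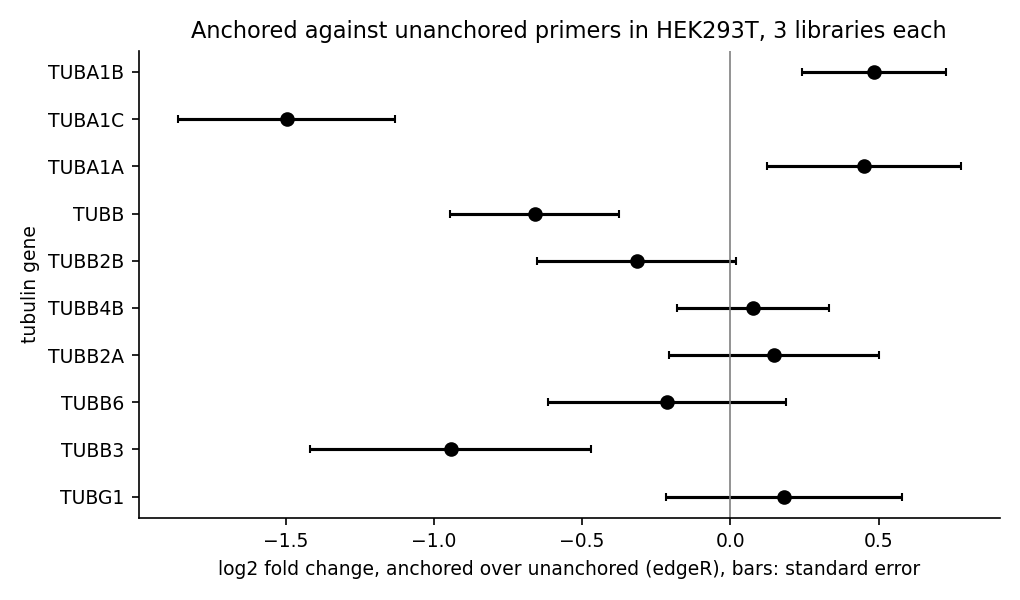
Log2 fold change of each tubulin gene between 3 anchored and 3 unanchored HEK293T libraries (edgeR), with bars of 1 standard error. TUBA1C lies furthest left at -1.50. By more than their bars, TUBA1C, TUBB and TUBB3 lie left of 0, and TUBA1B and TUBA1A right of it. No member had an edgeR adjusted p under 0.05.

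Over the 6 HEK293T libraries the coefficient of variation of CPM ran from 12.8% (TUBB4B) to 51.0% (TUBA1C). Its median over the members was 33.2%, where 5696 genes with a mean of at least 20 CPM had a median of 36.3%. The median ratio of highest to lowest library was 2.23 for the members and 2.74 for these genes.

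The other genes of the tubulin pathway were read from 5 lists of 95 genes in all. Between the primer classes 0 of 78 genes tested had an edgeR adjusted p under 0.05, against 1.35% of all genes, and 10 (12.8%) had an unadjusted p under 0.05, against 15.5% of all genes. Between the cell lines, of 74 genes with enough reads, 26 (35.1%) were at least 2-fold lower in A549 and 15 (20.3%) at least 2-fold higher, to be read against the 29.1% and 31.0% above.

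Of the 12 other tubulin genes only 4 had enough reads, and 2 were at least 2-fold higher in A549. TUBG2, the second gamma-tubulin, had 42.7 CPM in A549 and 15.9 in HEK293T T12 (2.70 to 15.9 over the HEK293T libraries), 2.69-fold higher, while TUBG1 was lower. TUBD1, the delta-tubulin of centrioles, had 10.0 and 19.2 CPM.

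Among 22 measured genes that fold tubulin, 10 were at least 2-fold lower and 3 higher in A549, with a median log2 ratio of -0.67. CCT7 and CCT8, subunits of the chaperonin that folds actin and tubulin, had 299 and 2195 CPM, and 33.3 and 231 CPM, in A549 and HEK293T T12 in that order, 7.33-fold and 6.94-fold lower. ARL2, a GTPase that works with the tubulin cofactors, was 2.201-fold higher (90.0 and 40.9 CPM). Its HEK293T levels ran from 37.8 to 73.6 CPM. TTC5, which recognises nascent tubulin in autoregulation, had 24.0 and 22.0 CPM.

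Of 11 measured genes of the gamma-tubulin ring and its anchors, 2 were lower and 2 higher. PCNT, a centrosomal scaffold, was 5.20-fold lower (9.34 and 48.5 CPM), and MZT2B, a small ring subunit, 4.54-fold lower (43.3 and 197 CPM). NEDD1, which targets the ring, was 2.097-fold higher (32.0 and 15.3 CPM), and TUBGCP4, a ring subunit, had 26.01 and 22.9 CPM. NEDD1 ran from 6.02 to 27.4 CPM over the HEK293T libraries.

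Of 11 measured genes that modify tubulin, 7 were at least 2-fold lower in A549 and 0 higher, with a median of -1.08. TTL, the ligase that restores the C-terminal tyrosine of alpha-tubulin, had 91.4 CPM in A549 and 752 in HEK293T T12, 8.23-fold lower. Its HEK293T levels ran from 254 to 1758 CPM. TTLL4, a glutamylase, had 4.001 and 35.4 CPM, 8.85-fold lower. It had only 6 reads in A549, and T12 was its highest HEK293T library, in a range from 6.90 to 35.4 CPM. AGBL5, a carboxypeptidase that removes glutamates, had 272 and 208 CPM, and TPGS2, of the polyglutamylase complex, 48.7 and 49.1 CPM.

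The 26 measured genes that bind microtubules went both ways, with 7 lower, 8 higher and a median of 0.21. MAP7, which recruits kinesin-1, had 240.1 CPM in A549 and 5.19 in HEK293T T12, 46.3-fold higher, and MAP2, a dendritic microtubule protein, had 88.7 and 3.97 CPM, 22.4-fold higher. Over the HEK293T libraries MAP7 reached 28.0 CPM and MAP2 9.16 CPM. TPX2, a spindle assembly factor, was 10.4-fold lower (4.67 and 48.5 CPM), and MAP1A had 1 read in A549 against 52. TPX2 ran from 24.3 to 152 CPM over the HEK293T libraries.

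The genes whose levels over the 7 libraries were most like those of TUBA1B were CITED1, FLT4 and DSC2, with a Pearson correlation of log2(CPM + 1) of 0.997, 0.997 and 0.996. All 3 had no read in A549, at 65.2 to 170, 29.5 to 81.1 and 22.4 to 56.3 CPM over the HEK293T libraries, so the 7 points share 1 library that lies far from the rest.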

How the data were processed

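Read counts per RefSeq transcript entry were deposited by the authors for 7 libraries, with hg19 sequence names. The submitters' processing notes list FastQC 0.11.8, cutadapt 2.10, Trimmomatic 0.39, HISAT2 2.2.1, SAMtools and the builds hg19 and GRCh37. The deposited tables also give a signal scaled to the library total, from which that total was recovered, and coverage signal over the transcript body was deposited for HEK293T and used only as a check. Counting tool settings are not given in the sources used here.

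Of 61177 entries, 98.3% matched a RefSeq symbol, giving 26621 genes. Each gene is its entry with most reads (the first listed where entries tied), and TUBB is the sum over 8 sequence names. Primer classes in HEK293T, 3 libraries against 3, were tested in edgeR 4.0.16 under R 4.3.3 (quasi-likelihood test after filterByExpr and TMM scaling), with Benjamini-Hochberg adjustment at 0.05 over all genes. The SE given with an edgeR fold change is the size of that log2 fold change divided by the square root of the test's F statistic. DESeq2 1.42.0 was an alternative. The scripts were tested on simulated data. Intervals of ratios are exact conditional binomial intervals at 95% and, because PCR copies of a molecule are not marked, cover counting error only. That of TUBB also takes each read in its sum over sequence names as counted once. The labels call the T12 libraries biological replicates, but only 1 of each line had gene counts.

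All 10 members are named. From each pathway list the 2 highest and 2 lowest A549 to HEK293T ratios among genes with at least 50 reads are named, with genes past the edgeR threshold (there were none). For the member with the largest ratio, the 3 most similar genes are named. The members and lists were chosen with earlier results of these data known, and the ZNF557 level and body coverage were read after values were seen.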

Additional observations from a re-analysis of the deposited data

Results flagged for a closer look

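TUBB3 in HEK293T T12 stood far from the other HEK293T libraries: it had 33.9 CPM, the next highest was 17.5 CPM with T30, and this gap was 0.774 of the whole range, above Dixon's critical value for 6 samples. Of 10 members examined in this way, 1 stood apart, where chance would give about 0.5. This library is the one A549 was compared with, so the TUBB3 ratio of 3.82 is the smallest of the 6 that the HEK293T libraries give, which reach 10.1. The cause of the high value was not tested.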

How the results depend on the processing

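Between primer classes, 147 of 10885 genes passed the threshold. With DESeq2 603 of 7788 did, and with no filter on low counts 556 of 16403. When 1 library was left out, 46 of 11363 (without T18VNN) to 111 of 11415 (without T18VN) passed. The count was 54 without T30, 63 without T18V and 85 without T18. Members passing numbered 0, and 1 (TUBA1C) with DESeq2, with no filter, and when T18VN was left out (range 0 to 1). The cause was not tested. Fold changes that turned sign were all of members that passed in neither setting: TUBB from chromosome 6 alone was 0.016 (log2), and leaving out each library gave -0.22 to 0.35 for TUBB2A, -0.59 to 0.028 for TUBB2B, -0.011 to 0.16 for TUBB4B, -0.60 to 0.20 for TUBB6 and -0.10 to 0.66 for TUBG1. With RLE scaling 150 genes passed.

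Between cell lines, 6104 genes were past 2-fold, and 4224 to 8884 over the alternatives. The 8 lower and 1 higher members held in count under each alternative except TUBB from chromosome 6 alone, with 7 lower. TMM scaling moved the median of all genes from 0.02 to -0.24, and the shares of all genes at least 2-fold lower and higher from 29.1% and 31.0% to 33.9% and 26.7%. Scaled to library totals they were 30.3% and 22.2%. An alternative added after seeing the data, the shortest and longest tied TUBB entry, gave an alpha to beta ratio of 1.17 and 1.43 for HEK293T T12, against 1.37. At 49 to 51 reads in A549, TUBB2A and TUBB6 have the widest intervals among the lower members. No paired analysis was possible because replicate numbers are shared only by the T12 libraries, of which 1 for each cell line has gene counts.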
